A study of Drosophila melanogaster with 2 samples.

Results

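The segment polarity genes are the class of Drosophila genes that set the pattern within each body segment of the embryo. The 10 members examined here were chosen by name as en, inv, wg, hh, ptc, nkd, mid, H15, ci and gsb, out of 13945 protein-coding genes of the Ensembl annotation on dm6. Their chromatin was examined for peaks of CG2875, a gene that RefSeq annotates as an uncharacterized protein, in ChIP-seq data from 1 group of 2 biological replicate libraries. Both libraries came from mixed-sex embryos aged 0 to 14 h of a single transgenic fly line that stably expresses CG2875 with a C-terminal GFP tag, and the tagged protein was precipitated with an antibody to GFP. Whole embryos were pooled, so a peak cannot be placed in a cell type or in a time within this span, and the labels do not name the promoter that drives the tagged gene. There was no second condition, so no test between groups was possible and every statement is a description of these 2 libraries.

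Within a segment, cells that express the transcription factor Engrailed secrete Hedgehog, and neighbouring cells respond by secreting Wingless, which in turn maintains Engrailed. Patched is the receptor that Hedgehog inactivates, Cubitus interruptus is the transcription factor at the end of the Hedgehog pathway, and Naked cuticle is an antagonist of Wingless signalling. The pattern persists after the early regulators of the gap and pair-rule classes have decayed, and several of these genes are also known targets of Polycomb repression.

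Peaks were taken from the authors' IDR list, which holds 4278 peaks on dm6. IDR stands for irreproducible discovery rate, a measure of the agreement of ranks between replicates. The best peak of each member in it had the same rank in the pooled list of both replicates. The weakest IDR peak and the pooled peak next below the list both had a signal of 119.5. The list is therefore read here as the strongest pooled peaks, and agreement at each single peak is not implied. Each peak has a signal value, the authors' measure of its enrichment in that list, and rank 1 is the strongest. A peak was called promoter when its summit lay within 500 bp of a member's transcription start site (TSS). It was called distal when it lay elsewhere within 15 kb of the gene body and nearer to that body than to any other protein-coding TSS. The segment polarity genes held 16 IDR peaks, 2 at promoters and 14 distal. The promoter peaks belonged to nkd and mid, 2 of 10 members, against 14.0% of all protein-coding genes. Distal peaks belonged to 7 of 10 members (en, wg, hh, ptc, nkd, mid and H15), against 13.2% of all protein-coding genes, and inv, ci and gsb had no IDR peak.

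The sequences under 7 of these summits are printed to show what kind of DNA the peaks cover: both promoter peaks, the strongest wg peak, the strongest nkd peak, the peak upstream of hh and the peaks downstream of the T-box genes mid and H15. Each window reaches 100 bp to either side of the summit in the Release 6 genome (RefSeq, dm6), written 5′ to 3′ on the strand of the gene. The promoter windows are nkd 5 at chr3L:19045469-19045669 (minus strand) and mid 1 at chr2L:5461395-5461595 (plus strand). The distal windows are wg 3 at chr2L:7296004-7296204 (plus strand), nkd 4 at chr3L:19042550-19042750 (minus strand), hh 1 at chr3R:23149113-23149313 (minus strand), mid 2 at chr2L:5476771-5476971 (plus strand) and H15 1 at chr2L:5425447-5425647 (plus strand). Capitals mark matches on either strand to GAGAG of the GAGA factor, the Pleiohomeotic core GCCAT, the replication-related element TATCGATA, the Zelda core CAGGTA, the short word CGATA, the core promoter motif GGTCACAC, the Pangolin core CTTTGA or the word CACTG, which was added after the data were seen.
nkd 5: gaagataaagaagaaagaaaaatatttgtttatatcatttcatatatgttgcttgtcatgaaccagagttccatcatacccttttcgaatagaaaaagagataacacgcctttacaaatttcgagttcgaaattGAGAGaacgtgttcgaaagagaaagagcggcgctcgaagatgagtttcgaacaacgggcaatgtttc
mid 1: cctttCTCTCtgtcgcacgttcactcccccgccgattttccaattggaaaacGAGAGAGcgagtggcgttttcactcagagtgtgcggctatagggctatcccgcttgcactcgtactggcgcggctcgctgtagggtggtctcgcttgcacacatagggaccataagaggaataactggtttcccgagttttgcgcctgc
wg 3: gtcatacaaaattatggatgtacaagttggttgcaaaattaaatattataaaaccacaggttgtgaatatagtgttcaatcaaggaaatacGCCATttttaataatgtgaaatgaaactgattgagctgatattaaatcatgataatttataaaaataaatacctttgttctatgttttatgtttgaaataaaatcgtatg
nkd 4: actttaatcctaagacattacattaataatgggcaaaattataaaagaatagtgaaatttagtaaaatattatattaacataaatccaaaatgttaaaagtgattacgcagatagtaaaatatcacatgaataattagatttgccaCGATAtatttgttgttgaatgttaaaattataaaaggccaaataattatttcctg
hh 1: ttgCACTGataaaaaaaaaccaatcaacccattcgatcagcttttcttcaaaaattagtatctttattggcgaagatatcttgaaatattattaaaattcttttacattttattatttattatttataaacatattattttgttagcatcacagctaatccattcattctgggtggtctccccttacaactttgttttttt
mid 2: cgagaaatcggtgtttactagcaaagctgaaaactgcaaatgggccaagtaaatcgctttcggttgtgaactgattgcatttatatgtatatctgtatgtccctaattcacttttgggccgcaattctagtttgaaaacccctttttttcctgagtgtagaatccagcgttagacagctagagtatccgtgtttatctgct
H15 1: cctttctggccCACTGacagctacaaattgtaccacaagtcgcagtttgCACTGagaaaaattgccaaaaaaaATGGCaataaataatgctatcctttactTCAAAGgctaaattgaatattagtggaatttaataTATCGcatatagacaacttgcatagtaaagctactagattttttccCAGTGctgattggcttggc

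The windows differed in base composition and in the matches they held. The mid promoter window held 3 matches to GAGAG, the letters bound by the GAGA factor, and was 55.7% GC, the highest of the 16 member windows, while the window of the strongest nkd peak was 22.4% GC, the lowest. The median over member windows was 35.3% GC, against 35.8% over the windows of all 4278 IDR peaks. GAGAG was present in 3 of 16 member windows (18.8%), against 24.5% of all IDR windows. It was in 8 of 32 windows centred 1000 bp to either side of the members' summits. Over such flanking windows of all IDR peaks, the share was 22.9%.

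The other motifs were likewise searched on both strands. GCCAT, the core bound by the Polycomb recruiter Pleiohomeotic, was in 6 of 16 member windows (37.5%), against 26.3% of all IDR windows and 33.4% of the flanking windows of all IDR peaks. It was in 10 of 32 member flanks (31.2%). CTTTGA, the core bound by Pangolin, the transcription factor of the Wingless pathway, was in 4 of 16 (25%), against 11.3% of all IDR windows and 11.6% of their flanking windows, and in 3 of 32 member flanks (9.38%). These matches lay at ptc 2, ptc 3, nkd 3 and H15 1. CGATA was in 5 of 16 member windows (31.2%), against 24.1% of all IDR windows. The share was the same in the members' flanking windows (10 of 32), against 21.4% of the flanking windows of all IDR peaks. CAGGTA, the core bound by the early activator Zelda, was in 1 window (6.25%), against 4.07% of all IDR windows. It was in 3 of 32 member flanks (9.38%), against 4.44% of the flanking windows of all IDR peaks. TATCGATA, the DNA replication-related element, and GGTCACAC, a core promoter motif, were in 0 of 16 member windows, against 1.92% and 1.82% of all IDR windows and 0.228% and 0.379% of the distal ones. Among these motifs, CGATA lies within TATCGATA. A match describes the letters and is not a binding site.

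Peaks were placed on the members in order of their role, starting with the secreted signals. wg (FBgn0284084, chr2L:7307159-7316265, plus strand), which encodes the Wnt ligand Wingless, had 3 IDR peaks, all upstream and all between 11.1 and 13.5 kb from its TSS. The strongest, wg 3 at chr2L:7295971-7296185, had a signal of 382 in the IDR list (rank 601), 174 in replicate 1 (rank 620) and 211 in replicate 2 (rank 584). Replicate signals come from lists of 30000 peaks each and differ in scale, so ranks are the measure to compare. The other peaks, wg 1 at chr2L:7293453-7293876 and wg 2 at chr2L:7294965-7295388, were weak. wg 1 had signals of 133 (IDR rank 3659), 68.8 in replicate 1 (rank 3045) and 65.4 in replicate 2 (rank 4730). wg 2 had signals of 124 (IDR rank 4045), 47.9 in replicate 1 (rank 5278) and 76.3 in replicate 2 (rank 3697). The 3 summits spanned 2.44 kb, with gaps of 1.51 and 0.927 kb, and the nearest other protein-coding TSS, that of Wnt4, lay 16.5 to 18.9 kb from them. At the wg promoter itself the peak was weak, with a signal of 67.0 in the pooled list of both replicates (rank 9655 of 30000), at a summit 50 bp upstream of the TSS.

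hh (FBgn0004644, chr3R:23128169-23141906, minus strand), which encodes the ligand Hedgehog, had 1 IDR peak at chr3R:23149001-23149424, 7.31 kb upstream of its TSS. Its signal was 166 (IDR rank 2583), with 78.5 in replicate 1 (rank 2482) and 88.4 in replicate 2 (rank 2908), so both libraries placed it at a similar rank. The same peak also met the distal rule for unk, whose TSS lay 8.65 kb away, and it was the 1 member peak assigned to more than 1 gene. By that rule its summit lay nearer to the body of unk than to the TSS of hh. No promoter peak of hh was in the pooled or replicate 1 list, and replicate 2 held 1 with a signal of 21.9 (rank 25121).

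ptc (FBgn0003892, chr2R:8649649-8665223, plus strand), which encodes the Hedgehog receptor Patched and is itself switched on by Hedgehog signalling, had 3 IDR peaks and the highest density of any member, 1.21 IDR peaks per 10 kb. The peak ptc 1 at chr2R:8644251-8644502, 5.25 kb upstream, was the strongest of all member peaks, with a signal of 383 (IDR rank 600), 194 in replicate 1 (rank 510) and 201.1 in replicate 2 (rank 640). Inside the gene, ptc 3 at chr2R:8654321-8654558, in an intron 4.75 kb downstream of the TSS, had a signal of 351 (IDR rank 713), 134 in replicate 1 (rank 1037) and 215 in replicate 2 (rank 565). The weaker intronic peak, ptc 2 at chr2R:8652212-8652635, had a signal of 206 (IDR rank 1852), 104 in replicate 1 (rank 1624) and 99.8 in replicate 2 (rank 2372), and lay 928 bp from the TSS of the non-coding RNA gene lncRNA:CR44281. At the ptc promoter, a summit 78 bp upstream of the TSS had a pooled signal of 95.7 (rank 5857), below the weakest IDR peak, whose signal was 119.5. Replicate 1 held a pair of overlapping peaks there, with ranks 5881 and 10150, and in replicate 2 the peak ranked 7110.

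ci (FBgn0004859, chr4:47710-57041, minus strand), which encodes the transcription factor Cubitus interruptus, had no IDR peak. Its strongest pooled peak lay 3.62 kb upstream with a signal of 69.5 (rank 9158) and 39.0 in replicate 1 (rank 7176). No replicate 2 peak contained its summit, but a weak one overlapped the pooled peak (signal 22.8, rank 23724). The strongest ci peak of replicate 2 lay 2.02 kb upstream, with a signal of 61.2 (rank 5265). A promoter peak 57 bp inside the 5′ UTR had a pooled signal of 68.9 (rank 9255), with rank 9612 in replicate 1 and 11846 in replicate 2. ci is the 1 member on chromosome 4, which held 18 of the 4278 IDR peaks and 207 of the 30000 pooled peaks.

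nkd (FBgn0002945, chr3L:19003741-19045449, minus strand), which encodes the Wingless antagonist Naked cuticle and is induced by Wingless signalling, had 5 IDR peaks, more than any other member. The promoter peak, nkd 5 at chr3L:19045512-19045644, lay 120 bp upstream of the TSS and had a signal of 220 (IDR rank 1672), 119 in replicate 1 (rank 1283) and 99.2 in replicate 2 (rank 2395). The other 4 were intronic, at 2.8, 3.51, 12.1 and 20.5 kb downstream of the TSS. The strongest was nkd 4 at chr3L:19042557-19042662, with a signal of 310 (IDR rank 905), 174 in replicate 1 (rank 622) and 140 in replicate 2 (rank 1291). nkd 1 at chr3L:19024780-19025203 and nkd 2 at chr3L:19033185-19033608 were nearly equal, with signals of 254 and 252 (IDR ranks 1294 and 1309). In replicate 1 their signals were 112 and 104 (ranks 1436 and 1618), and in replicate 2 they were 141 and 140 (ranks 1282 and 1292). nkd 3 at chr3L:19041726-19042149 was the weakest, with a signal of 181 (IDR rank 2252), 67.9 in replicate 1 (rank 3100) and 108 in replicate 2 (rank 2096). The non-coding RNA gene lncRNA:CR45940 spans the summit of nkd 2, and its TSS lay 503 bp away, just outside the promoter distance. The 5 summits spanned 20.6 kb. An IDR peak count of 5 or more was found for 153 of 13945 protein-coding genes (1.1%). The share differed with the territory, the stretch in which a summit would be assigned to a gene. Such a count was found for 3.14% of genes with a territory in the members' range of 16.4 to 55.2 kb and for 13.3% of those with 33.5 kb or more, where nkd lies with 45.3 kb.

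en (FBgn0000577, chr2R:11524006-11528210, minus strand) and inv (FBgn0001269, chr2R:11474465-11509695, plus strand) are neighbouring homeobox genes, and their nearest TSSs lie 52.2 kb apart. en had 1 IDR peak, at chr2R:11541092-11541515, 13.1 kb upstream, on the side away from inv. The libraries ranked it differently: its signal was 177 (IDR rank 2346), with 53.6 in replicate 1 (rank 4470) and 117 in replicate 2 (rank 1780). inv had no IDR peak although its territory of 55.2 kb was the longest of the members. The strongest inv peak of the pooled list was intronic, 24.8 kb downstream of the nearest inv TSS, with a signal of 95.9 (rank 5837), 37.5 in replicate 1 (rank 7692) and 56.9 in replicate 2 (rank 5868). At the promoters, the strongest pooled peak had a signal of 42.2 (rank 18912) for en and 44.1 (rank 17782) for inv, and the inv promoter had no peak in replicate 2.

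mid (FBgn0261963, chr2L:5461639-5467610, plus strand) and H15 (FBgn0016660, chr2L:5404280-5416593, plus strand) are neighbouring T-box genes, and H15 lies upstream of mid in the same orientation, with 57 kb between their nearest TSSs. Each had an IDR peak in the intergenic DNA beyond its 3′ end. That of mid, mid 2 at chr2L:5476765-5476961, lay 9.26 kb past the gene and had a signal of 295 (IDR rank 1004), 129 in replicate 1 (rank 1101) and 168 in replicate 2 (rank 913). That of H15, at chr2L:5425335-5425758, lay 8.95 kb past the gene and had a signal of 208 (IDR rank 1836), 94.1 in replicate 1 (rank 1883) and 112.5 in replicate 2 (rank 1919). The libraries ranked each of these downstream peaks closely. The promoter peak of mid, mid 1 at chr2L:5461283-5461706, lay 144 bp upstream of the TSS and had a signal of 122 (IDR rank 4179), 56.9 in replicate 1 (rank 4061) and 65.9 in replicate 2 (rank 4665), which places it near the end of the IDR list. H15 had no promoter peak in the IDR list, the pooled list or either replicate list.

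gsb (FBgn0001148, chr2R:25061964-25064643, plus strand), which encodes a paired-domain transcription factor that maintains wg, had no IDR peak. Its pooled list entries were a promoter summit with a signal of 33.2 (rank 26846), present in replicate 1 (rank 9170) but not in replicate 2, and a distal summit with a signal of 36.2 (rank 23726). Both were near the lowest pooled signal of 30.6. It had the fewest pooled peaks of any member and the second shortest territory, 17.4 kb, after the 16.4 kb of ci.

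**Figure D1:**
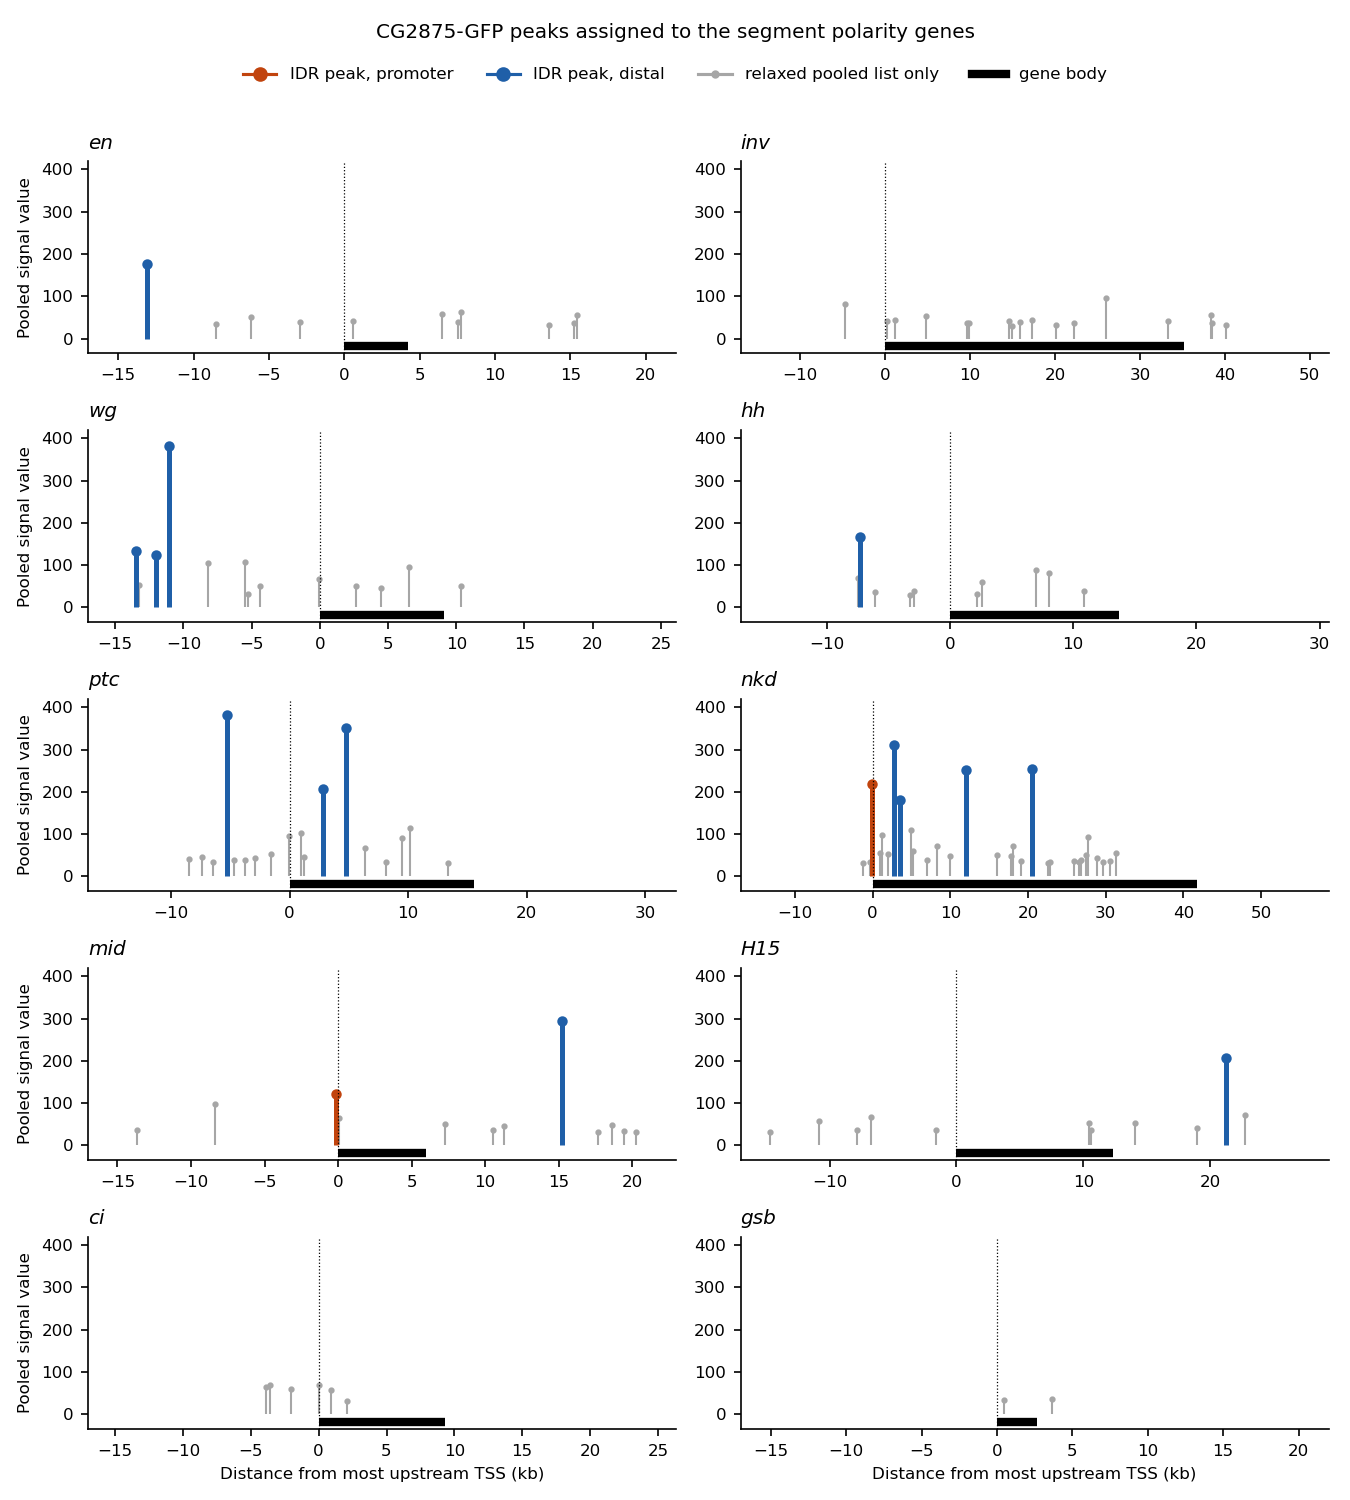
Peaks assigned to each of the 10 segment polarity genes, by distance of the summit from the most upstream TSS in the direction of transcription (x axis, kb) and signal value in the pooled list (y axis); coloured stems are IDR peaks, grey stems are peaks of the relaxed pooled list alone and the black bar is the gene body. The 16 IDR peaks stand at 121.6 or more, nkd and mid have the promoter peaks, and inv, ci and gsb have grey stems alone.

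By position, the 16 IDR peaks of the members were 6 in introns, 6 upstream beyond 500 bp, 2 downstream and 2 at promoters. Of their summits, 0 were in an exon of the member itself, and exons of other genes did not enter this count. None lay within 500 bp of a TSS of another gene of any kind. The signals ran between 121.6 and 382.8 with a median of 213.7, against a median of 187.7 (119.5 to 2332) over all IDR peaks. Of the 16, 10 were above that median and 6 at or below it. The 14 distal peaks had a median signal of 230.1, against 185 for the 2726 distal peaks of all protein-coding genes. The strongest member peak ranked 600 of 4278.

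Both libraries held a peak at each of the 16 sites, against 4226 of all 4278 IDR peaks (98.8%). The IDR list is itself made from the replicate and pooled lists. A narrower measure is presence among the strongest 4278 peaks of each replicate. It was met by 12 of the 16 (75%), against 3102 of all IDR peaks (72.5%). The exceptions were en 1 and wg 2 in replicate 1, and wg 1 and mid 1 in replicate 2. The summit in a replicate list lay a median of 5 bp from the IDR summit in replicate 1 and 10.5 bp in replicate 2, and at most 55 and 119 bp. Over the 16 peaks, Spearman's rho between the replicate ranks was 0.776, against 0.692 over all IDR peaks with a peak in both replicate lists. The peaks share 2 libraries and come from a list made from both, so these values are no independent measure of agreement.

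**Figure D2:**
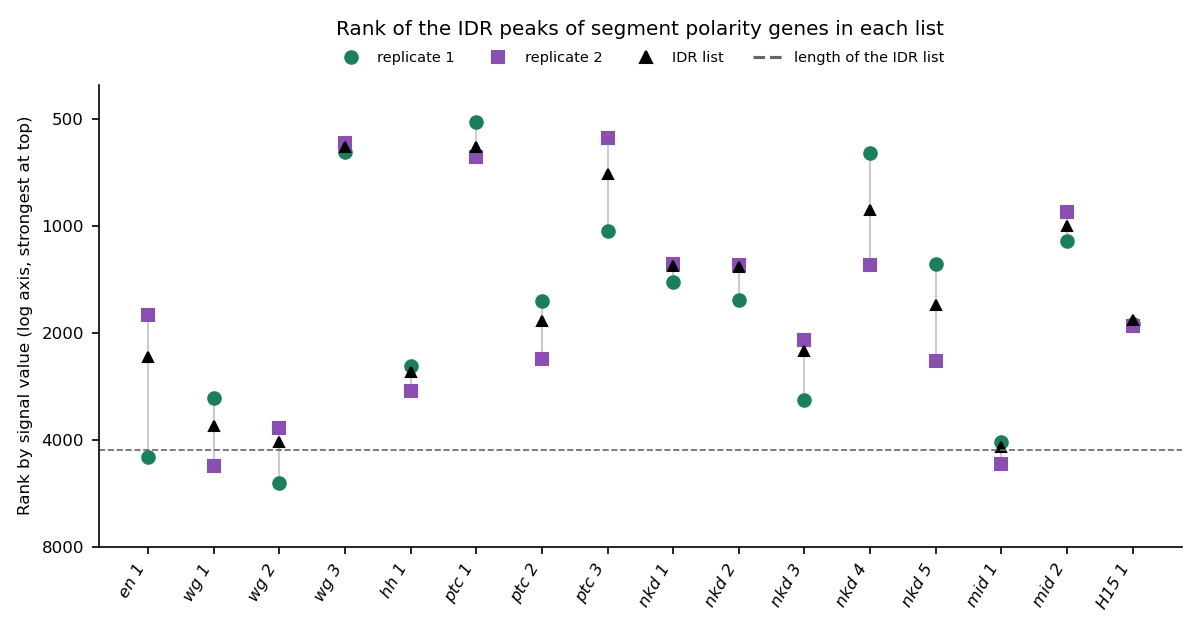
Rank by signal value (y axis, log scale, strongest at the top) of each of the 16 IDR peaks of the segment polarity genes (x axis) in the replicate 1, replicate 2 and IDR lists; the dashed line marks rank 4278, the length of the IDR list. The peaks wg 3 and ptc 1 lie near rank 600 in each list, and en 1, wg 1, wg 2 and mid 1 fall below the line in 1 replicate.

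Segment polarity genes lie in wide stretches with few other genes, and a wider territory gives more room for a distal peak. Their median territory was 33.5 kb, against 6.01 kb over all protein-coding genes, and their nearest other protein-coding TSS lay a median of 18.9 kb away, against 1.38 kb. Among the 2387 protein-coding genes with a territory in the members' range of 16.4 to 55.2 kb, which include the members, 34.5% had a distal IDR peak and 16.4% a promoter IDR peak. The members' 7 of 10 and 2 of 10 stand beside those shares. Per length, the members held 0.49 IDR peaks per 10 kb of territory, against 0.323 over the genes of that range and 0.334 over all protein-coding genes. At least 3 IDR peaks were found for 3 members (wg, ptc and nkd), against 11.6% of the genes in that range. No IDR peak was found for 3 members, against 59.1%. The 5 members with a territory of at least 33.5 kb were also set beside the 826 protein-coding genes that long. Of these members, 4 had a distal IDR peak, against 49.6% of such genes, and 2 a promoter IDR peak, against 22.9%. At least 3 IDR peaks were found for 1 of them (nkd), against 25.4%, and no IDR peak for 1 (inv), against 45.9%. Per length, these 5 members held 0.423 IDR peaks per 10 kb, against 0.249 over such genes.

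**Figure D3:**
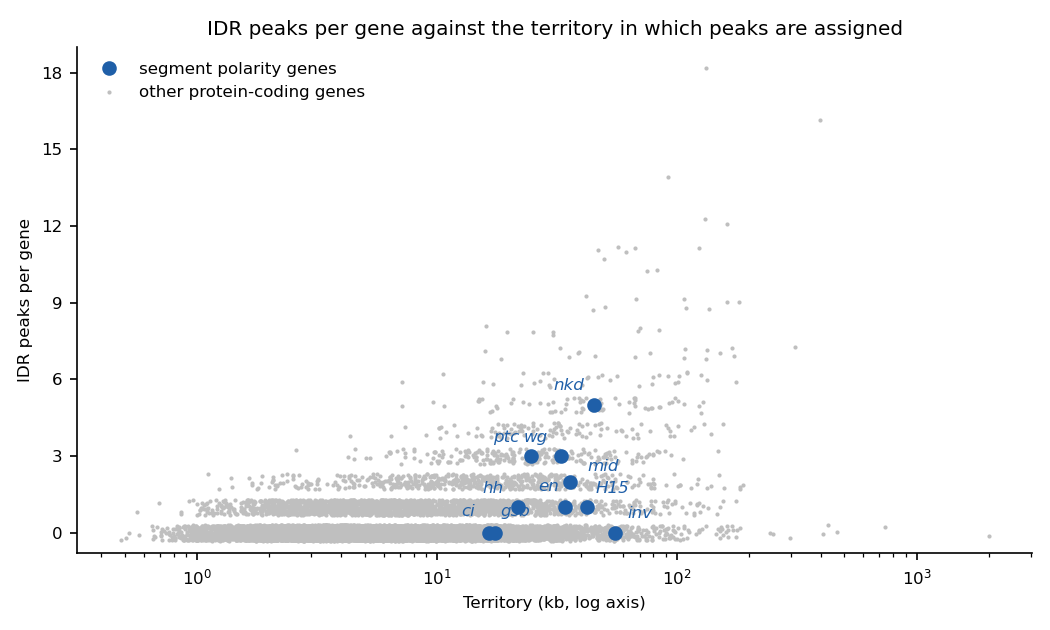
IDR peaks per gene (y axis, with a small vertical scatter for the grey points) against the length of territory in which a summit is assigned to the gene (x axis, kb, log scale), for the 10 segment polarity genes (blue, named) and the other protein-coding genes (grey). The members lie between 16.4 and 55.2 kb, with nkd at 5 peaks and inv, ci and gsb at 0.

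The counts were next read in each list on its own. Among the strongest 4278 peaks of replicate 1, promoter peaks were found for 2 of 10 members (nkd and mid), against 13.5% of all protein-coding genes, and distal peaks for 6 of 10, against 13.4%. Among the strongest 4278 of replicate 2, promoter peaks were found for 1 of 10 (nkd), against 14.5%, and distal peaks for 7 of 10, against 12.8%. The distal count therefore differed by 1 gene between the libraries, which was en, and the promoter count by mid. Among genes with a territory in the members' range, the distal shares were 34.5% in replicate 1 and 32.8% in replicate 2. The promoter shares of such genes were 15.6% and 17.6%.

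The relaxed lists contain background peaks by design. In the pooled list, 8 of 10 members had a promoter peak, all but hh and H15, against 45.3% of protein-coding genes, and 10 of 10 had a distal peak, against 47.3%. The distal pooled peaks numbered 28 at nkd, 17 at ptc and 15 at inv, and 1 at gsb. In the replicate 1 list the counts were 8 of 10 at promoters, against 43.8%, and 9 of 10 distal, all but gsb, against 52.3%. In the replicate 2 list they were 7 of 10 at promoters, against 47.3%, and 10 of 10 distal, against 49.4%. Among genes with a territory in the members' range, 81.3% had a distal peak in the pooled list and 52.6% a promoter peak.

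Just inside the IDR list stood mid 1 (signal 121.6, rank 4179) and wg 2 (124, rank 4045). Just outside it in the pooled list stood an intronic ptc peak with a signal of 115.1 (rank 4508), an intronic nkd peak with 110.7 (rank 4758) and wg peaks 5.49 and 8.18 kb upstream with 107.1 and 106.1 (ranks 4995 and 5056). By distance, the farthest IDR peak inside the limit of 15 kb from the gene body was wg 1 at 13.5 kb, and there were 0 further IDR peaks of the members out to 25 kb.

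Other genes of the Hedgehog and Wingless pathways were counted in the same way. Over all protein-coding genes, the shares to set beside these and the later lists were 14.0% at promoters and 13.2% distal. Among genes with a territory of at least 33.5 kb they were 22.9% and 49.6%. Of 19 Hedgehog pathway genes that are not members, 7 had a promoter IDR peak (36.8%) and 6 a distal one (31.6%). The median territory of the 19 was 8.48 kb, but the 6 with a distal peak had territories of 39.8 to 72.5 kb. The strongest was at sgg, the kinase of the GSK3 family that acts in both pathways, with a signal of 680.7 (rank 160) in the IDR list, 323 in replicate 1 and 364.7 in replicate 2. It was followed by rdx, an adaptor for Ci degradation, with 355.7 (rank 701), by sotv, an enzyme of heparan sulfate synthesis, with 167.5, and by the glypican gene dally with 127.4. The most distal peaks in this list, 4 each, were at rdx and at dlp, the other glypican gene.

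Of 25 Wingless pathway genes that are not members, 7 had a promoter IDR peak (28%) and 10 a distal one (40%), with a median territory of 16.9 kb. The strongest was at gish, a casein kinase gene, with a signal of 1010.5 (rank 46), 466.8 in replicate 1 and 543.1 in replicate 2. It was followed by the co-repressor gene gro with 597.8 (rank 224), by the co-receptor gene arr with 289.2 and by Apc, of the destruction complex, with 181.7. The receptor gene fz had the most distal peaks, 9. The best promoter signal of a member, 220 at nkd, was below the values of sgg, rdx, gish, gro and arr.

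A list named neighbours and paralogs held 9 genes, and its name is loose. By nearest other protein-coding TSS, it held the neighbour of gsb and of no other member. It also included forkhead and LIM-homeobox genes. Of the 9 genes, 1 had a promoter IDR peak (11.1%) and 5 a distal one (55.6%). The promoter peak was at Poxm, another paired-domain gene, with a signal of 373.1 (rank 635). slp2, a forkhead gene, and tup, a LIM-homeobox gene, had the most distal peaks, 2 each, and the best of slp2 had a signal of 798.8 (rank 99). Of the earlier segmentation classes, 0 of 7 gap genes had an IDR peak of either kind. No IDR peak was found for 76.2% of all protein-coding genes and for 59.1% of those with a territory in the members' range. Of 9 pair-rule genes, 0 had a promoter and 5 a distal IDR peak (55.6%), with slp2 first again at 2, since slp1 and slp2 are in both lists. Of 8 Hox genes, Dfd had a promoter peak (signal 131.2) and 5 had a distal one (62.5%), with Antp first at 7. The distal share of the segment polarity genes (70%) thus stood beside those of the pair-rule and Hox genes, and no difference between lists was tested. Median territories were 20.9 kb for the gap genes, 20.5 kb for the pair-rule genes and 48.2 kb for the Hox genes.

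**Figure D4:**
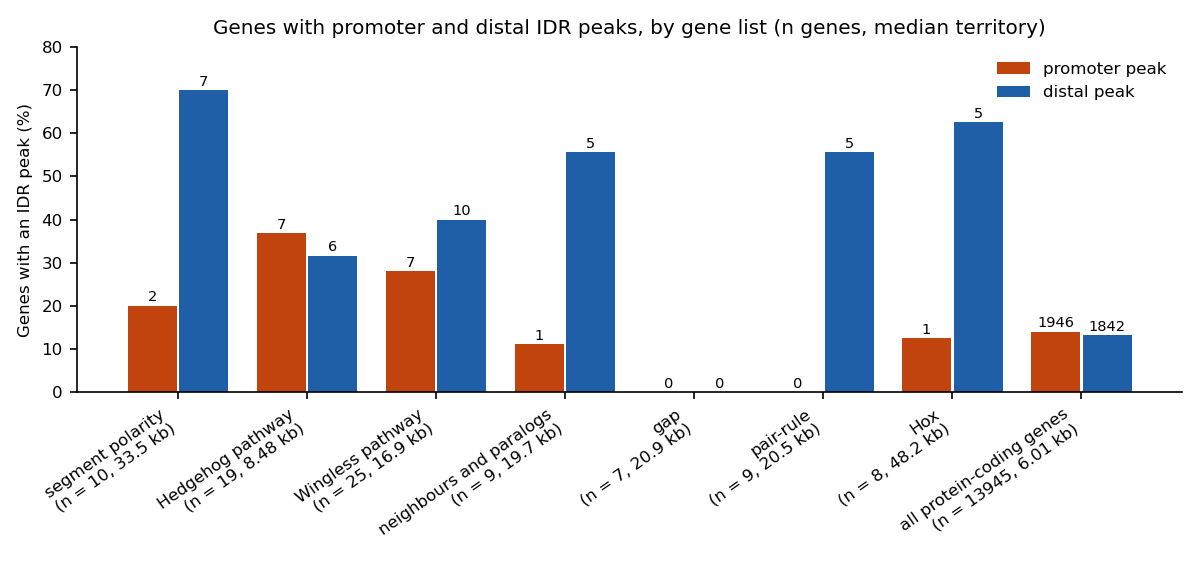
Percent of genes with a promoter or a distal IDR peak (y axis) in the segment polarity genes, in the related lists and in all protein-coding genes (x axis, with the number of genes and the median territory in kb); numbers over bars are genes. The segment polarity genes have 2 genes with a promoter peak and 7 with a distal peak, and the gap genes have 0 of either.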

How the data were processed

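ChIP-seq peak lists of 2 biological replicates were used, 1 group with no second condition. The authors made each list from alignments of the replicates and of a control, per the deposited records. For the aligner, the peak caller and the IDR threshold, the labels and headers name none. The signal value is the authors' measure of enrichment and was used to rank peaks within a list. The deposited −log10 q-value was tied for all 4278 IDR peaks and was not used. Read depth is unknown. The dm3 lists were not used.

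Summits were assigned to Ensembl release 115 genes on dm6 by the rule in the text, with Python 3.11.15, numpy 2.4.6 and scipy 1.17.1 (figures with matplotlib 3.10.9). Territory was measured in steps of 50 bp. The assignment was tested on simulated summits. A replicate peak was matched to an IDR peak when its interval contained the IDR summit, taking the nearest summit where several did. As a coordinate check, 13882 of 13945 genes (99.5%) read ATG at their first coding codon in the Release 6 genome. Shares of all protein-coding genes include the members. The members and lists were chosen with earlier results of these data known. Named were all members and, of each other list, the genes with a promoter IDR peak (at most 4 by signal) and the gene with the most distal IDR peaks, ties included. All listed genes matched the annotation, WntD as wntD and h as hry. No p-value was computed. Alternatives covered the promoter distance, the reach, the competing TSSs, the signal threshold, the overlap and each replicate alone.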

Additional observations from a re-analysis of the deposited data

How the results depend on the processing

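The 16 IDR peaks of the segment polarity genes stayed 16 with a promoter distance of 250 or 1000 bp, with a reach of 25 kb, and when the nearest protein-coding TSS had to be the member's own, and the members with promoter and distal peaks stayed 2 and 7. A reach of 5 kb lowered the peaks to 8 and the members with a distal peak to 2 (ptc and nkd), because the other distal peaks lie farther out. Keeping the stronger 50% of the IDR list left 10 peaks, 1 member with a promoter peak (nkd) and 5 with a distal one. Taking 1 replicate alone gave 1 to 2 members with a promoter peak, 6 to 7 with a distal peak and 14 to 16 peaks, with mid lost at the promoter without replicate 1 and en lost without replicate 2. Further alternatives were added after the data were seen. The strongest 10000 pooled peaks, a longer list, gave 5 members with a promoter peak (wg, ptc, nkd, mid and ci) and 9 with a distal one. When non-coding TSSs also competed, 6 members had a distal peak, with H15 lost. Apart from the single replicates, these counts have no share of all protein-coding genes beside them, and they describe no trait of the members. Replicate support fell to 15 of 16 peaks with summits within 100 bp and to 13 with a reciprocal overlap of 50%. No paired analysis was possible because the series has 1 group. Read depth is unknown, so no counting error can be given for a signal value, and the absence of a peak at inv, ci or gsb holds for these lists alone.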

Other observations

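The Wnt genes on either side of wg also had IDR peaks, values that were picked out after they were seen. Wnt4 had a promoter peak with a signal of 119.8 (rank 4265, at the very end of the IDR list) and 4 distal peaks, the best with a signal of 217. Wnt6, the nearest neighbour of wg, had a promoter peak with a signal of 168.2 (rank 2541), while wg itself had its peaks upstream and none at its promoter in the IDR list.

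The word CACTG and its longer form CACTGA were both chosen after the members' windows were read. A higher share in those windows can follow from that choice, so the counts are a description and support no enrichment. On either strand CACTG was in 8 of the 16 windows under the members' summits (50%). It was in 7 of 32 windows 1000 bp to either side of them (21.9%). Over all IDR peaks it was in 46.2% of summit windows and in 30.1% of flanking windows. The longer word CACTGA was in 6 of 16 member windows (37.5%) and 2 of 32 member flanks, against 15.8% of all IDR windows and 8.33% of all flanks. The H15 window held the most CACTG matches among the member windows, 3.

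Of the members' IDR peaks, 10 of 16 were 424 bp wide, which is the commonest width in the whole IDR list. The share of all IDR peaks with that width is not given here, so the count describes no trait of the members.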
